A study of Mus musculus with 6 samples.

Results

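The 7 genes described here, Tal1, Lyl1, Lmo2, Gata2, Runx1, Mef2c and Hhex, encode transcription factors of the haemogenic endothelium, the endothelial cells of the embryo from which blood stem cells arise. They were taken by name from 20661 protein-coding genes of the mouse autosomes. The rule of choice used no measured value, but earlier results of these data were known when it was made. Each locus was the gene span of the RefSeq annotation (GRCm38.p6, the assembly called mm10) with 20 kb on either side, and the 7 loci held 657 of the 1683697 windows of 1000 bp that had a value in all 6 samples. The DNA came from endothelial cells sorted from the lungs of wild-type mice, and its methylation had been read by bisulfite sequencing of the whole genome from tagmented libraries. The 3 samples titled mAdu were taken as the group aged 8 months and the 3 titled aged as the group aged 18 months, since the series names these ages without tying them to titles. The labels name no strain, sex or number of animals per sample, so the spread between samples may be technical. Values are the authors' mean methylation levels per window, here in percent, and differences are aged minus mAdu in points. Read coverage is unknown, so no counting error could be attached. None of the 657 windows held a value within 0.01 points of 0% or 100%, which 1.72% of all windows did.

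In the protein complex that these factors form, TAL1 or its close relative LYL1 binds DNA together with an E protein. LMO2, which does not bind DNA itself, bridges them through LDB1 to a GATA factor, in blood progenitors and endothelium often GATA2. RUNX1 drives the conversion of haemogenic endothelium into blood, MEF2C is a MADS-box factor of endothelial and heart development, and HHEX is a homeobox factor of early endothelial and blood precursors. Several of these genes are known to stay active in the endothelium of adult organs and in blood cells. At CpG-rich promoters in use, and at many distal regulatory elements, methylation is generally low.

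Of the 4 lists of cell markers, the endothelial one had the lowest median at ends and over bodies. The less methylated end of each gene had a median level of 12.0% over 8 endothelial markers, against 62.8% over 8 blood markers, 24.7% over 5 epithelial and 25.04% over 5 mesenchymal markers, beside 33.3% over all genes. The epithelial and mesenchymal medians at ends thus also lay under that of all genes. Over gene bodies the medians were 45.3%, 71.6%, 70.3% and 72.8%, beside 73.3% over all 17530 bodies. Single markers departed from their list: the endothelial gene Emcn was at 33.0% at its end and 78.0% over its body, and Nkx2-1, an epithelial marker, at 1.86% and 1.89%. The mean end level of the blood markers lay between 58.6% and 64.6% in mAdu samples and between 59.4% and 61.5% in aged samples. The part that DNA of other cell types played in the values below was not tested.

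Of the genes 6 had annotated starts in the RefSeq promoter table, 11 in all, and Lmo2 had no entry. Because methylation sits on CpG sites, the starts that differed most are shown first, each from 250 bp before to 50 bp after the start, 5′ to 3′ on the gene's strand, with CpG sites in capitals. Runx1 is transcribed from a distal and a proximal promoter, and its starts lay 128745 bp apart. Start 1, the distal one (chr16:92826025-92826324, minus strand), held 2 CpG sites, and start 2 (chr16:92697280-92697579, minus strand) held 35.
Runx1 start 1: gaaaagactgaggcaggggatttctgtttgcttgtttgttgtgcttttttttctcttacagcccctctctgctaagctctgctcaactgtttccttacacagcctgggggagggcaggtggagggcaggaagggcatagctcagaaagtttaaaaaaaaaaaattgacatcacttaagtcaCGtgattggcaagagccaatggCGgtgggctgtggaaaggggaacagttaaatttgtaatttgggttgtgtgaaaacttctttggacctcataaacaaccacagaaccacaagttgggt
Runx1 start 2: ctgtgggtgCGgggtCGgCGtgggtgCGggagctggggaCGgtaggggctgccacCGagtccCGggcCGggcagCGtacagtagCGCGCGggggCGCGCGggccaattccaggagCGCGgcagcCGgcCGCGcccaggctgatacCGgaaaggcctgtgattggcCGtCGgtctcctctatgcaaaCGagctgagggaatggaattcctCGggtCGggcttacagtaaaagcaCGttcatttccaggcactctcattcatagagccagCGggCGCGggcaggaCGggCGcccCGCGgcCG

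Mef2c had 3 annotated starts on the plus strand. Start 1 (chr13:83503784-83504083) held 1 CpG site, start 2 (chr13:83523406-83523705), 19622 bp downstream of it, held 10, and start 3 (chr13:83573357-83573656), 69573 bp downstream of start 1, held 4. They are shown because their methylation covered most of the scale.
Mef2c start 1: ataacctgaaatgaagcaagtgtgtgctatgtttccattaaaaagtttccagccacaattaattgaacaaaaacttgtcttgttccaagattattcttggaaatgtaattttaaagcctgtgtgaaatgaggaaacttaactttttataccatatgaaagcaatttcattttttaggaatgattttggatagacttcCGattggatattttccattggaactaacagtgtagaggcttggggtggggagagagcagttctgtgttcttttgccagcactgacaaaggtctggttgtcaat
Mef2c start 2: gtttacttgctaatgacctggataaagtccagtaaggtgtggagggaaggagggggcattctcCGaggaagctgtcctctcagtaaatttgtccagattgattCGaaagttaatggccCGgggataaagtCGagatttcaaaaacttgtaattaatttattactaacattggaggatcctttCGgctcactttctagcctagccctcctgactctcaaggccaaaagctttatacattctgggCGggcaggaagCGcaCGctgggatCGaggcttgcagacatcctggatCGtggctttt
Mef2c start 3: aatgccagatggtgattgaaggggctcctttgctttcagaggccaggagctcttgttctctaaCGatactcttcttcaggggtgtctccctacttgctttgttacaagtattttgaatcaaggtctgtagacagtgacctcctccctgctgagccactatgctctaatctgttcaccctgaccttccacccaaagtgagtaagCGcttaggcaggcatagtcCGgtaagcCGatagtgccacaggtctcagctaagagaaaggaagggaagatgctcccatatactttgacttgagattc

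The single Lyl1 start (chr8:84701207-84701506, plus strand) is shown because it held only 7 CpG sites, the median over 31396 autosomal start regions, and was nevertheless almost unmethylated.
Lyl1 start 1: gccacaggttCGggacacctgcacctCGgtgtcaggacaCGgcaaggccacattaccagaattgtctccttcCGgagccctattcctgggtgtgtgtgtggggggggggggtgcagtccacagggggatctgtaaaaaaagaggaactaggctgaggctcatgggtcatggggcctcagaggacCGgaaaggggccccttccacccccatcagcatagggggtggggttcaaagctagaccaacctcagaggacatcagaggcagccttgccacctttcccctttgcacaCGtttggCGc

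Methylation at these starts, read from the window or windows that overlap the 300 bp, ran from almost absent to high, with Mef2c start 3 at an intermediate level. The distal Runx1 start was at 71.2%, 76.3% and 70.2% in mAdu replicates 1, 2 and 3 and at 61.2%, 72.9% and 75.5% in aged replicates 1, 2 and 3. The proximal Runx1 start was at 1.79%, 0.882% and 0.586% in mAdu against 1.16%, 0.502% and 1.55% in aged samples. The distal start was thus methylated and the proximal one almost free of methylation in each of the 6 samples, and the age groups overlapped at both. The difference between the starts averaged 70.1 ± 5.49 points (SD, n = 6 samples). The exact two-sided paired permutation p was 0.03125, the smallest that 6 pairs allow, and 0.0469 after adjustment over the 6 pairs of starts compared. The tests between starts of a gene, here and below, were added after the levels were seen. Their p-values concern the likeness of the samples only.

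Mef2c start 1 was at 83.7%, 85.7% and 85.1% in mAdu against 78.5%, 88.0% and 84.0% in aged samples. Start 2 was at 1.06%, 0.351% and 4.33% in mAdu against 0.888%, 0.925% and 1.63% in aged samples. Start 3 lay between them, at 33.7%, 35.9% and 33.5% in mAdu against 32.7%, 42.2% and 44.2% in aged samples. The order of the 3 starts was the same in every sample. Start 1 exceeded start 2 by 82.6 ± 3.36 points and start 3 by 47.1 ± 4.32 points, and start 3 exceeded start 2 by 35.5 ± 5.39 points (SD, n = 6 samples; exact paired permutation p = 0.03125 and adjusted p = 0.0469 for each).

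At Tal1 and Gata2 both annotated starts were almost unmethylated. Those of Tal1 averaged 0.814% and 0.915% over the 6 samples and those of Gata2 0.992% and 0.919%, and neither pair differed beyond the spread (exact paired permutation p = 0.875 and p = 0.844). Single samples at the Tal1 starts lay between 0.212% and 2.74%, and at the Gata2 starts between 0.400% and 1.76%. The Hhex start was at 0.742%, 1.66% and 2.81% in mAdu against 2.87%, 1.38% and 1.18% in aged samples. The Lyl1 start was at 2.95%, 2.38% and 1.81% in mAdu against 2.37%, 1.59% and 3.34% in aged samples. In all, 8 of the 11 starts were under 20%, with means from 0.814% to 2.41%, and 46.4% of the 29229 autosomal start regions with a level were under 20%.

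**Figure D1:**
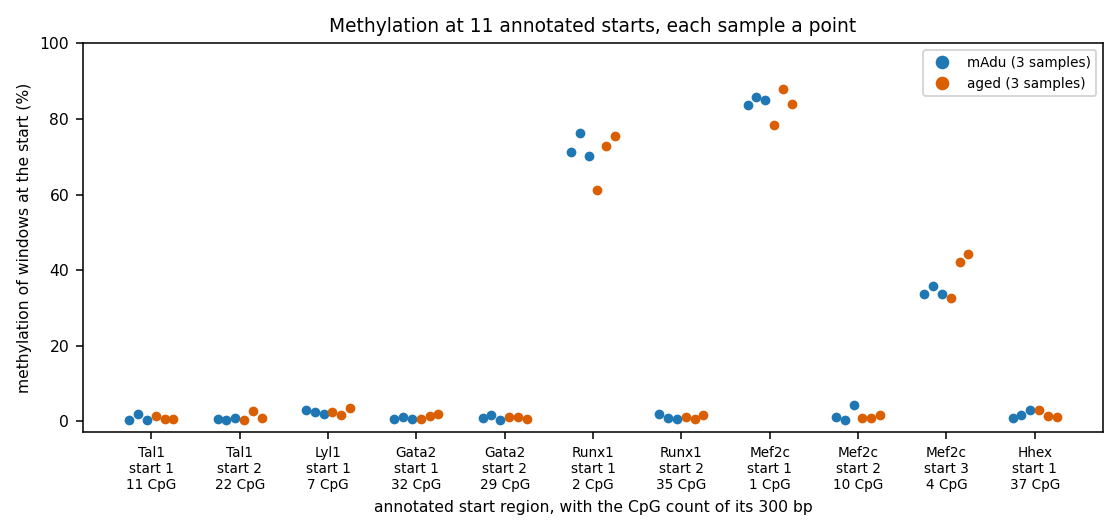
Methylation (y axis, percent) of the windows at each of the 11 annotated starts (x axis, with the CpG count of the 300 bp), 1 point per sample, mAdu in blue and aged in orange. The first Runx1 and Mef2c starts sit high and Mef2c start 3 between, while the other 8 starts have means of at most 2.41%.

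The starts with low methylation were the ones with more CpG sites. The 8 low starts held 7 to 37 CpG sites and the 3 others 1 to 4. Over the 11 starts the CpG count and the methylation level had a Spearman rho of -0.627, and over all 29229 start regions of -0.753, given as a description since windows are wider than the counted sequence and starts of a gene share a locus. A set of 4 short motifs was searched on both strands of the 300 bp, and a match is only a match of letters. The GATA-factor motif with the letters AGATAA was in 1 of the 11 starts, Tal1 start 1, and in 11.2% of all start regions. CAGATG, an E-box of the TAL1 type, was in Tal1 start 1 and Mef2c start 3 and in 17.2% of all. TGTGGT, a RUNX motif, was in Runx1 start 1 and in 16.7% of all, and CCGGAA, an ETS motif, in Lyl1 start 1 and Runx1 start 2 and in 15.1% of all.

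Over gene bodies, taken from 500 bp inside each edge, the 7 genes ran from almost unmethylated to near the common level. Gata2 was lowest at 5.45%, followed by Lyl1 at 17.2%, Tal1 at 34.4%, Hhex at 56.6%, Lmo2 at 63.3%, Runx1 at 68.1% and Mef2c at 70.2% (means of 6 samples). The ranges of the 6 samples did not overlap between any neighbours in this order. All 7 lay under the median of 73.3% over all bodies, at percentiles from 0.542 for Gata2 to 37.0 for Mef2c. Windows under 20% made up 9.28% of the 657 windows, against 2.89% of all autosomal windows, and windows over 80% made up 40.6% against 44.0%. The shares over all windows include those far from genes. No such share was taken over the loci of other genes, so these values do not set the members apart from genes in general. By locus the share under 20% ran from 3.83% for Runx1 to 34.7% for Gata2.

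Low stretches, defined as runs of adjacent windows whose mean over the 6 samples was under 30%, gave the shape of each locus. The 7 loci held 26 of the 44370 autosomal stretches, 16 of them centred inside the genes and 10 in the flanks. Of the 26, 6 held an annotated start of their own gene and 13 were a single window. Those that held no own start and lay more than 1000 bp from any other gene's edge or start numbered 17. This count includes the only Lmo2 stretch, since no annotated Lmo2 start was at hand. The distances below run from the outermost annotated start to the ends of a stretch or the middle of a window.

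**Figure D2:**
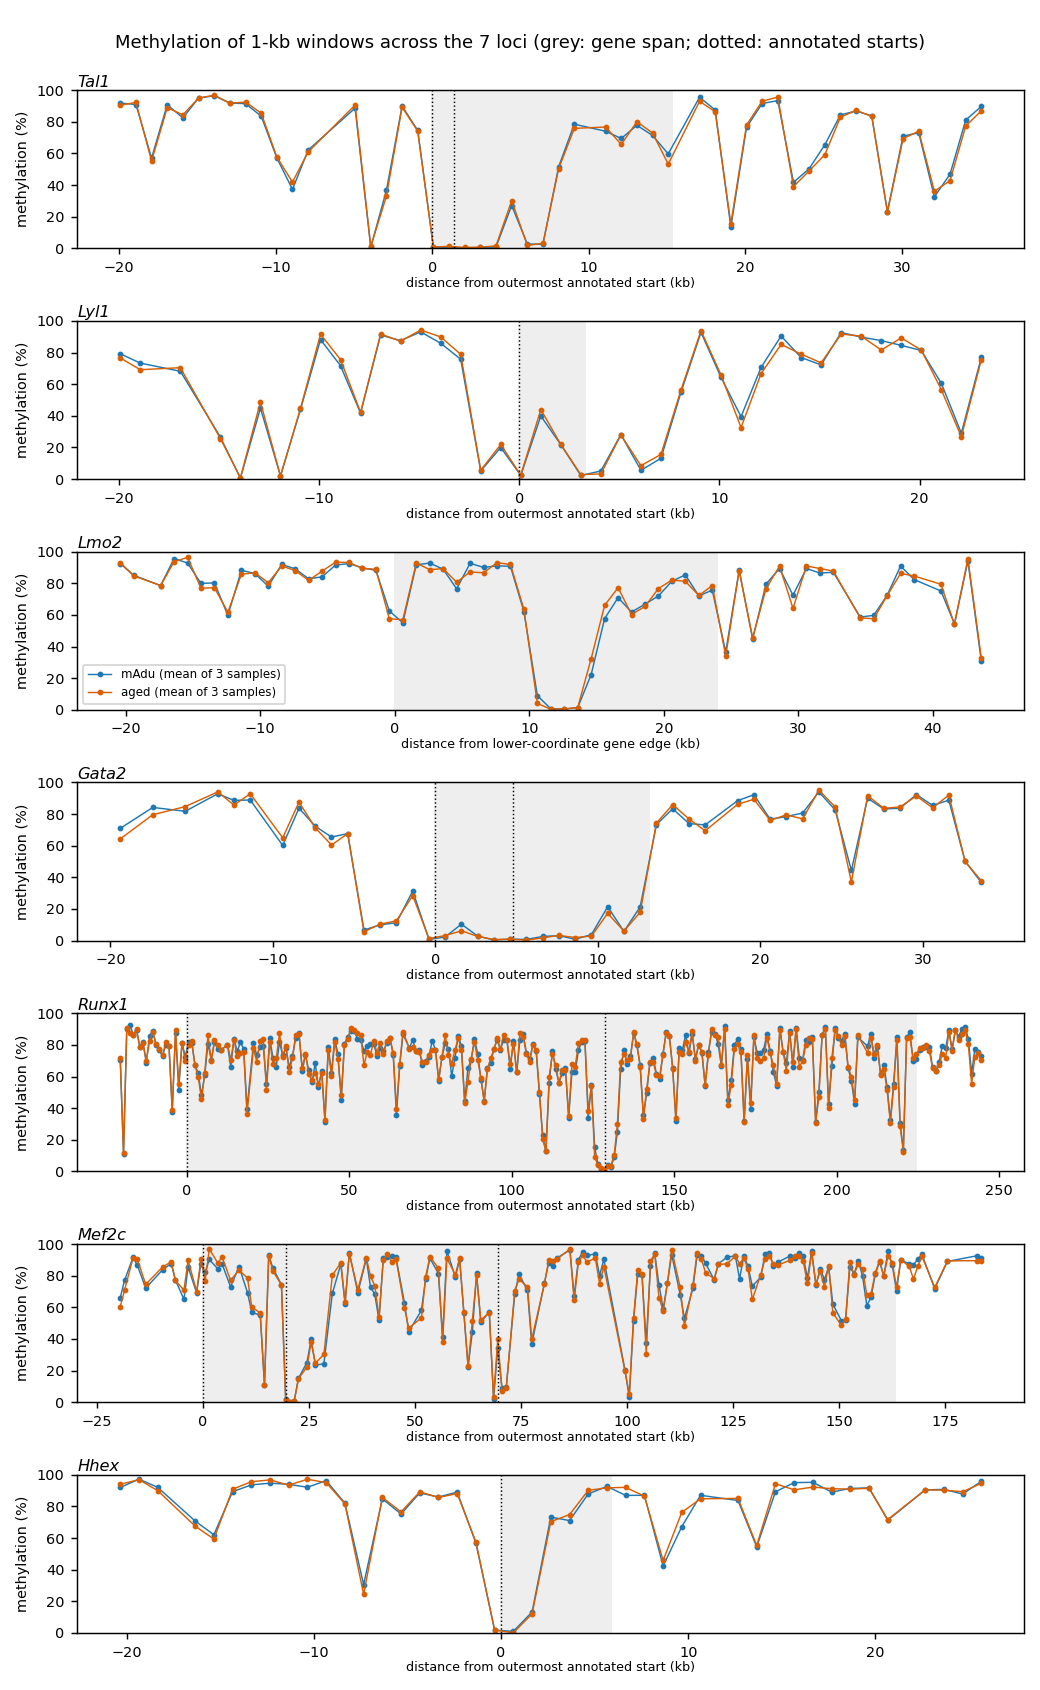
Mean methylation of each 1-kb window (y axis, percent) against distance in kb from the outermost annotated start, or from the lower-coordinate gene edge for Lmo2 (x axis), in mAdu (blue) and aged (orange) samples, each point the mean of 3 samples. Lines join measured windows, also across windows without a value, and the lines of both ages run close together at all 7 loci, with the broad trough of 18 windows at Gata2.

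Tal1, a basic helix-loop-helix factor needed for the first blood and for endothelial remodelling (chromosome 4, 115056426 to 115071755), carried a low stretch of 8 windows from 0.4 kb before its first start to 7.6 kb after it. The stretch was at 5.30%, 3.21% and 4.71% in mAdu against 4.30%, 6.53% and 4.12% in aged samples, and the groups overlapped. It holds both Tal1 starts, and the lncRNA gene Gm33786 overlaps it. Of all stretches 0.746% were at least 8 windows long. Methylation rose to 50.9% at 8.07 kb and 77.2% at 9.07 kb, so the last part of the gene was methylated.

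Outside the gene, Tal1 had a single almost unmethylated window at -3.93 kb (chromosome 4, 115052001 to 115053000). It was at 1.37%, 0.224% and 0.554% in mAdu against 0.943%, 0.186% and 2.26% in aged samples, between windows of 89.6% and 34.8%. A second single window at 19.07 kb (115075001 to 115076000), beyond the far end of the gene, was at 11.9%, 10.3% and 18.0% in mAdu against 20.1%, 10.2% and 16.3% in aged samples, with neighbours at 86.9% and 77.2%. Tal1 is known to have endothelial and blood stem cell enhancers on both sides of the gene. Whether these windows are those elements was not tested. Another window (115085001 to 115086000) averaged 23.0%.

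Lyl1, the relative of Tal1 (chromosome 8, 84701423 to 84704716), is short and was low over much of its length. Its body was at 17.7%, 15.5% and 16.6% in mAdu against 16.3%, 17.3% and 19.7% in aged samples. The window at its start averaged 2.41% and the next window, at 1.08 kb, 41.9%. A stretch of 3 windows around the start averaged 9.56%, and one of 6 windows from 1.6 to 7.6 kb averaged 12.99%. The second stretch spans the far end of Lyl1 and an edge of Nfix, whose annotated span overlaps that of Lyl1 there, so the level at this end cannot be assigned to either gene. Further upstream a single window from 84689001 to 84690000 averaged 1.94%, and a pair of windows at the edges of Nacc1 and Trmt1 averaged 13.4%. The 20 kb on either side, which hold these genes, were at 56.0% and 60.4%, percentiles 6.03 and 10.9 of all flanks of their side.

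Lmo2, the bridging LIM-only protein (chromosome 2, 103957903 to 103981878), was methylated at both edges and unmethylated in its middle. The lower-coordinate end was at 69.0%, 66.0% and 70.8% in mAdu against 68.0%, 68.7% and 66.8% in aged samples, and the higher-coordinate end averaged 56.3%. The only low stretch of the locus was 5 windows long, from 103968001 to 103973000, which is 10.1 to 15.1 kb from the lower-coordinate edge. It was at 8.59%, 7.16% and 4.56% in mAdu against 7.99%, 8.16% and 7.18% in aged samples. Its lowest window (103969001 to 103970000) averaged 0.518%. Lmo2 is known to be transcribed from more than 1 promoter, and no annotated start of Lmo2 was at hand to set beside this stretch. The lower-coordinate flank averaged 85.7%, higher than the corresponding flank of most genes (percentile 96.5).

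Gata2, a zinc finger factor of blood stem cells and endothelium (chromosome 6, 88193891 to 88207032), lay almost entirely in 1 broad low stretch. This ran over 18 windows, from 4.9 kb before the first start to 13.1 kb after it, and only 0.0969% of the 44370 stretches were as long or longer. It was at 8.50%, 7.49% and 6.82% in mAdu against 6.83%, 7.03% and 6.71% in aged samples. Within it, the window at -1.39 kb averaged 29.9%, the window at 10.61 kb 19.3% and that at 12.61 kb 19.6%, while the lowest, at 5.61 kb, averaged 0.527%. An edge of the lncRNA gene Gm38708 lies inside the stretch. Beyond the far end the level was 73.8% at 13.61 kb and 84.7% at 14.61 kb. The body of Gata2, at percentile 0.542, was the lowest of the 7 genes.

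Runx1, the runt-domain factor of the endothelial-to-blood transition (chromosome 16, 92601466 to 92826074), was largely methylated apart from the surroundings of its proximal start. Its body of 220 windows was at 68.3%, 68.0% and 68.2% in mAdu against 67.7%, 68.1% and 68.2% in aged samples. Around the proximal start, 8 windows from 125.1 to 133.1 kb downstream of the distal start (92693001 to 92701000) were at 7.69%, 8.07% and 7.82% in mAdu against 6.97%, 8.54% and 8.42% in aged samples. A second stretch of 2 windows between the starts, at 109.1 to 111.1 kb, averaged 17.1%, and another of 2 windows near the far end of the gene averaged 21.3%. Upstream of the distal start a single window (92845001 to 92846000) averaged 11.3%. The stretch near the far end was at 22.0%, 22.5% and 22.0% in mAdu against 21.2%, 21.5% and 18.9% in aged samples, without overlap.

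Mef2c (chromosome 13, 83504017 to 83667079) had the most low stretches counted, 9, all inside the gene. Only 147 of the 204 possible windows of this locus had a value, against 261 of 266 at Runx1. The 2 flanks of Mef2c held 12 and 9 windows. A stretch ends at a window without a value, so stretches here may have been split or missed. The longest, 4 windows from 19.0 to 23.0 kb that hold start 2, was at 3.76%, 4.41% and 5.05% in mAdu against 3.93%, 4.48% and 4.38% in aged samples. Its window from 83524001 to 83525000 averaged 0.295%, the lowest of the 657 windows. Near start 3 a window at 68.48 kb averaged 2.55% and a pair of windows from 70.0 to 72.0 kb averaged 8.62%, on either side of the window of start 3. A further 2 windows (83603001 to 83605000) averaged 12.0%, of which the lower was at 4.11%. The single window from 83518001 to 83519000 averaged 10.98%, and the 4 other single windows lay between 22.5% and 27.3%.

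Hhex, the homeobox factor (chromosome 19, 37434841 to 37440731), had the plainest profile, with low methylation at its start and high methylation around it. A stretch of 3 windows from 0.8 kb before to 2.2 kb after the start was at 5.25%, 4.03% and 6.75% in mAdu against 4.53%, 5.32% and 4.19% in aged samples. From 2.66 kb on the gene was at 71.8% and more, and the far end averaged 90.9%. Both flanks were high, at 82.5% and 83.6%. A single window at 7.8 to 6.8 kb upstream averaged 27.5%.

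The less methylated end of a gene was not lower than its body in 4 of the 7 genes. An end reached 1000 bp out and 500 bp into the gene, and held 1 to 3 windows. The end taken was the one with the lower mean over the 6 samples, and it can share a window with the body. It was the start end at Tal1, Gata2 and Hhex, the far end at Lyl1, Mef2c and Runx1, and the higher-coordinate end at Lmo2. The far end of Lyl1 is the one where the span of Nfix overlaps. End minus body was -36.7 ± 1.35 points at Hhex, -13.8 ± 2.07 points at Lyl1 and -7.06 ± 2.12 points at Lmo2 (SD, n = 6 samples). It was 12.7 ± 2.21 points at Mef2c, 6.82 ± 2.46 at Runx1, 5.78 ± 1.78 at Gata2 and 3.15 ± 1.42 at Tal1. All 6 samples had the same direction in each of the 7 genes (exact two-sided paired permutation p = 0.03125 for each of 7 comparisons, the smallest that 6 pairs allow). These p-values concern the likeness of the samples only, since the end was chosen on the same values. With ends reaching 2000 bp out and 1000 bp in, the Lmo2 difference was 4.91 points, so its direction depends on the width. The Tal1 end averaged 37.6% although its start window was at 0.814%, because the window before it was at 74.3%.

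**Figure D3:**
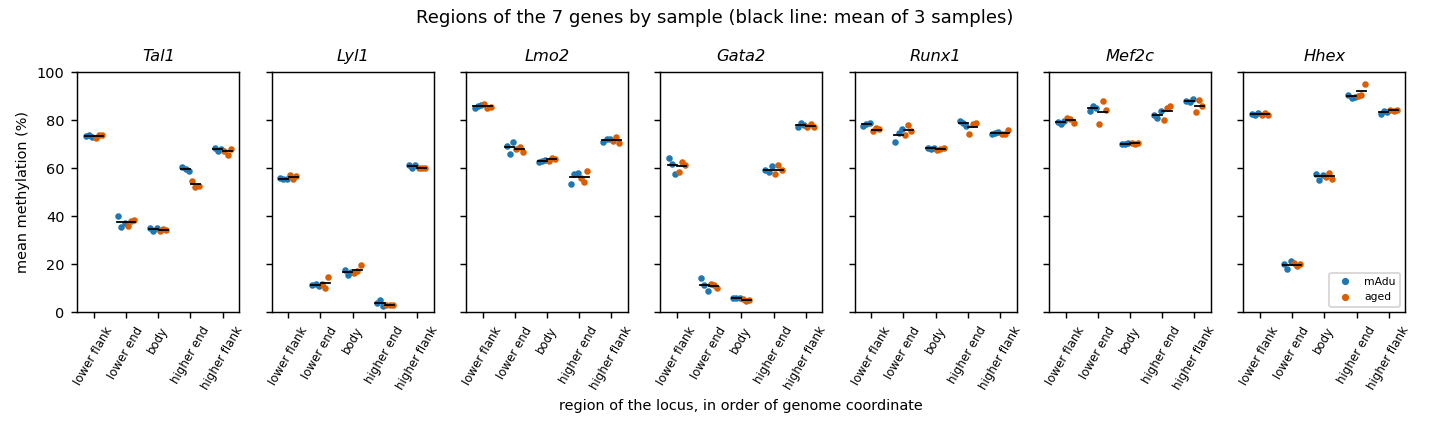
Mean methylation (y axis, percent) of the flanks, ends and body of each gene in order of coordinate (x axis), 1 point per sample with the mean of 3 samples as a black line. Bodies of Gata2, Lyl1 and Tal1 lie low, and the body of Hhex lies between its 2 unlike ends.

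The comparison of the age groups asks whether these loci differed between 8 and 18 months. No feature of the 7 genes passed limma's test with Benjamini-Hochberg adjustment over all features of its kind. Of the 657 windows 0 passed, where 0.0211% of all windows did, and 27 had an unadjusted p under 0.05 (4.11%, against 4.67% of all windows). In 66 windows, or 10%, no aged value lay within the mAdu range or the reverse, and the share over all windows was 10% too. Aged samples were lower in 34 of them, where 5.28% of all windows were, and higher in 32, where 4.75% of all windows were. The smallest adjusted p of limma over the 657 windows was 0.978. Differences under 10 points were found in 655 of them, and in 1619631 of all 1683697 windows.

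Each kind of region also gave 0 calls by limma among the members. Over all features of a kind, limma called 0.00524% of less methylated ends, 0.0105% of more methylated ends, 0.0171% of bodies, 0.00488% of lower-coordinate flanks, 0.00976% of higher-coordinate flanks, 0% of whole loci, 0.00225% of low stretches and 0.0103% of start regions. At an unadjusted p under 0.05 limma gave 1 of 7 more methylated ends, 1 of 7 bodies, 1 of 7 lower-coordinate flanks and 1 of 26 stretches. It gave 0 of 7 less methylated ends, 0 of 7 higher-coordinate flanks, 0 of 7 whole loci and 0 of 11 starts. The shares over all features at that p were 4.98% of less methylated ends, 5.1% of more methylated ends, 4.97% of bodies, 4.87% and 4.44% of lower- and higher-coordinate flanks, 4.68% of whole loci, 5% of low stretches and 4.68% of start regions. Groups that did not overlap were found in 1 more methylated end, 1 body, 1 flank of each side and 2 of 26 stretches, and in 0 less methylated ends, whole loci and starts. Over all features these shares were 10.3% of more methylated ends, 10% of bodies, 10.3% and 9.84% of lower- and higher-coordinate flanks, 10.8% of stretches, 10.2% of less methylated ends, 9.72% of whole loci and 10.4% of start regions. The median difference over the 7 bodies was 0.0368 points, beside -0.0392 over all bodies, and over the 7 less methylated ends -0.0328 points, beside 0.0317 over all.

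The far end of Tal1 had the largest difference among the regions. It was at 60.6%, 59.7% and 58.9% in mAdu against 54.8%, 52.2% and 52.7% in aged samples, all aged samples below all mAdu samples. The difference was -6.47 points (SE 1.43, limma adjusted p = 0.96) and rests on 1 window (115071001 to 115072000). Fitted among single windows, the same values had an SE of 2.65 (limma adjusted p = 0.978). The body of Gata2 was at 6.07%, 5.75% and 5.91% in mAdu against 5.37%, 4.75% and 4.87% in aged samples, again without overlap. Its difference was -0.909 points (SE 0.349, limma adjusted p = 0.982). The flank downstream of Runx1 was at 77.6%, 78.4% and 78.7% in mAdu against 75.4%, 76.5% and 76.2% in aged samples, also without overlap, and differed by -2.20 points (SE 0.568, limma adjusted p = 0.968). The flank downstream of Hhex was at 82.6%, 83.8% and 83.2% in mAdu against 84.0%, 84.0% and 84.2% in aged samples, without overlap, with an interval of the difference from -0.219 to 2.03 points.

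How closely the data bound the difference varied with the kind of region, and whole loci had the closest bounds. The 95% interval of limma for the body of Runx1 ran from -1.21 to 0.819 points, for Mef2c from -0.896 to 1.10, for Tal1 from -1.70 to 1.30 and for Gata2 from -1.76 to -0.059. For the bodies of Lmo2, Hhex and Lyl1 it ran from -0.539 to 2.23, from -2.49 to 2.56 and from -1.39 to 3.74 points. Over whole loci the 7 intervals lay between -2.13 and 1.29 points. Among gene ends the widest interval was that of the start end of Mef2c, from -7.00 to 4.26 points. The narrowest was that of the far end of Lyl1, from -2.24 to 0.892. Among flanks the widest lay upstream of Gata2, from -5.06 to 4.28 points, and the narrowest upstream of Hhex, from -1.18 to 1.02. At the distal Runx1 start the interval was wide, from -12.1 to 6.66 points, and at Mef2c start 3 from -2.14 to 12.8 points. At the proximal Runx1 start it ran from -1.13 to 1.10 points.

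**Figure D4:**
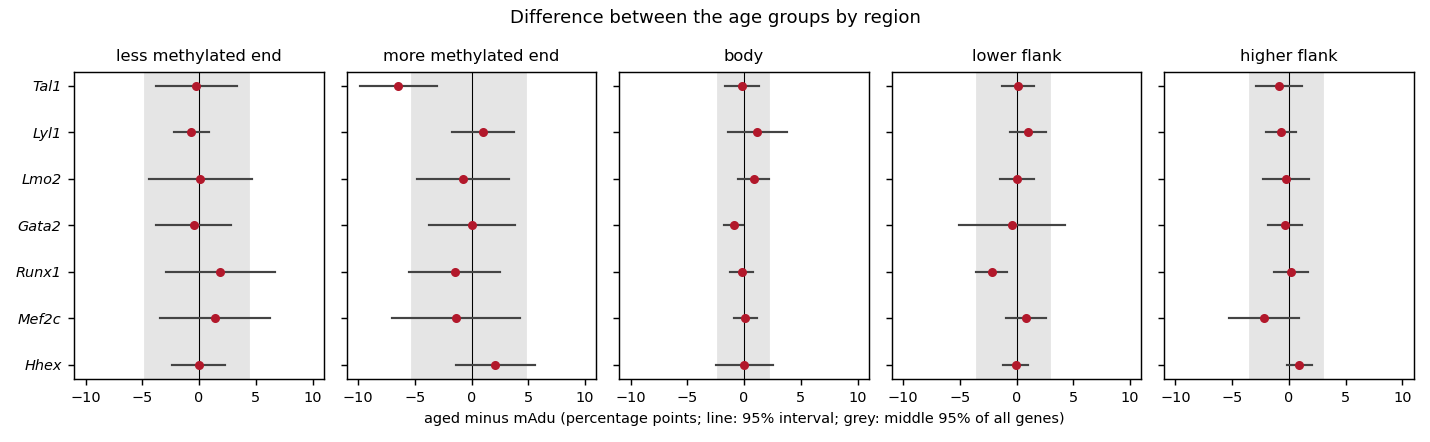
Difference between the age groups (x axis, percentage points, aged minus mAdu) for each gene (y axis) and region, with limma's 95% interval as a line and the middle 95% of all genes in grey. The far end of Tal1, at -6.47 points, is the only member value outside the grey band.

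Among single windows, the smallest p belonged to the first window of the low stretch of Lmo2 (103968001 to 103969000). The mAdu values were 9.05%, 10.98% and 6.99% and the aged values 3.82%, 5.35% and 2.98%, which differ by -4.96 points (SE 1.23, limma adjusted p = 0.978). The difference over the whole stretch was 1.002 points (SE 1.10), of the opposite sign. A second Lmo2 window (103987001 to 103988000) averaged 72.5% in mAdu and 64.2% in aged samples. The second smallest p at Tal1 was that of 115081001 to 115082000, with 65.4% and 59.2%. A window of Mef2c from 83505001 to 83506000 averaged 90.2% and 96.9% in the younger and older group, and one from 83532001 to 83533000 at 24.3% and 30.2%. In Runx1 a window from 92771001 to 92772000 was at 76.2% and 67.1%, and one from 92809001 to 92810000 at 81.8% and 75.04%. At Hhex a window downstream (37444001 to 37445000) was at 67.3% and 76.3%, and one upstream (37424001 to 37425000) at 92.1% and 97.2%. At Lyl1 windows from 84714001 to 84715000 and from 84712001 to 84713000, both within Nfix, were at 90.5% and 85.1% and at 39.5% and 32.6%. The Gata2 window from 88204001 to 88205000 was at 21.4% and 17.3%, and that from 88182001 to 88183000 at 88.9% and 92.9%. None of these windows passed (limma adjusted p = 0.978 for each).

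The partners of these factors and other genes of the programme gave no call either. Of 15 measured partner genes, such as the bridging factor Ldb1, the E proteins Tcf3, Tcf4 and Tcf12 and the RUNX partner Cbfb, limma called 0 at ends and 0 at bodies. The partners had a median of 25.5% at less methylated ends and 69.2% over bodies. Gata1, on the X chromosome, was not analysed here. The body of Ldb1 was at 34.7% and that of Cbfb at 82.6%, the lowest and highest of the partners. Of 12 haemogenic and blood stem cell genes 0 passed, with medians of 15.9% and 66.8%. Their bodies ran from 14.3% for Gfi1, a repressor of the endothelial programme in emerging blood cells, to 81.0% for Mecom. Of 10 endothelial ETS and SoxF factors 0 passed, with medians of 21.6% at ends and 45.6% over 9 bodies, from 4.30% for Sox17 to 74.7% for Etv6. The 7 members had medians of 37.6% and 56.6%, and all genes 33.3% and 73.3%. In these lists the smallest unadjusted p at ends were those of Gata3, at 8.52% in mAdu and 11.5% in aged samples, Myb (1.19% and 2.19%) and Etv2 (19.96% and 23.1%). Over bodies they were those of Tcf12 (81.9% and 80.1%), Gfi1 (13.5% and 15.1%) and Fli1 (62.6% and 61.3%). The limma adjusted p of these 6 values lay between 0.962 and 0.982.

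Genes with the most similar levels over both ends and the body were found by the root mean square difference over these 3 regions in 6 samples, among 16706 genes. They were Lgals2 and Myadm for Tal1 (2.92 and 3.07 points), Vax1 and Tusc2 for Lyl1 (2.59 and 3.02), Rhbdf2 and Kcnn4 for Lmo2 (1.91 and 2.87), Il2rb and Laptm5 for Runx1 (2.18 and 2.36), Slc31a2 and Ap4s1 for Mef2c (2.92 and 2.94) and Acer2 and Susd6 for Hhex (2.44 and 2.61). The nearest genes to Gata2, Gm45095 and Gm52006, were further away, at 5.27 and 6.49 points.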

How the data were processed

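Libraries of sorted lung endothelial DNA were made by T-WGBS, per the labels' protocols, which is the usual short name of whole-genome bisulfite sequencing after tagmentation. BWA 0.7.8 and build mm10 were used, per the submitters' processing notes. The CpG caller is not given in the sources used here, nor are the coverage filter and the averaging. Deposited was a table with the authors' mean methylation fraction per sample for 1684140 windows (1000 bp, 19 autosomes) and no coverage. Fractions were multiplied by 100, and windows lacking any sample were dropped, leaving 1683697. Each region took the plain average of its overlapping windows, with at least 3 windows for bodies and flanks. Flanks ran from 1000 bp to 20 kb outside the gene.

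Age was tested by limma 3.58.1 (R 4.3.3) with group as the only term and trended variance. P-values were adjusted by Benjamini-Hochberg over all features of a kind, with a threshold of 0.05. The script was tested on simulated data. Values of the same gene were compared by exact paired permutation over the 6 samples with numpy 2.4.6. Alternatives were a replicate block, a logit scale, no windows within 0.01 points of 0% or 100%, no variance trend, other widths and thresholds, and leaving out each sample. The tests at annotated starts were added after seeing the data. The members and lists were chosen with earlier results of these data known. Named windows were the lowest of each locus and the 2 with the smallest p, and named list genes those with the smallest p or the extreme levels.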

Additional observations from a re-analysis of the deposited data

How the results depend on the processing

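The number of member windows, regions, stretches and starts that limma called was 0 in the fit with all samples and stayed 0 under every alternative, including the replicate block, where it was 0 for each kind. The labels do not say whether the numbers in the titles pair the samples. Deviations of same-numbered samples over bodies had correlations of -0.166, -0.136 and -0.00642. With 3 samples a group these values cannot show whether the samples were matched. Over all autosomal windows the count of calls was 355, with the block 185, on the logit scale 145, without windows of extreme values 59, without the variance trend 287, and 680 to 998 without any 1 sample. Fewer than 8 features of each other kind were called over all genes under each alternative, except 50 of 107809 stretches under 50%.

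None of the 74 single age differences (aged minus mAdu, in points) passed under any alternative (smallest adjusted p = 0.716). The direction held in 724 of 783 refits. Changing the end width to 2000 bp outside and 1000 bp inside gave -0.202 at the less methylated end of Runx1 and 1.37 and 1.16 at the more methylated ends of Mef2c and Runx1. Which end is the less methylated was decided anew at that width, so a label can pass to the other end. The 1.37 of Mef2c equals the difference at its far end, the less methylated one at 1000 bp outside and 500 bp inside. A flank of 10 kb gave 0.0387 for the lower-coordinate flank of Gata2, and the logit scale gave 0.0254 at Tal1 start 1. Leaving out 1 sample turned the sign of the following differences, given by their lowest and highest values. For annotated starts, Gata2 start 2 from -0.312 to 0.296, Hhex from -0.459 to 0.611, Lyl1 from -0.396 to 0.480, Mef2c start 1 from -3.63 to 1.15, Mef2c start 2 from -1.55 to 0.442, Runx1 start 2 from -0.269 to 0.335, Runx1 start 1 from -5.53 to 1.61, Tal1 start 1 from -0.371 to 0.474, Tal1 start 2 from -0.144 to 1.12. For bodies, Hhex from -0.745 to 0.647, Mef2c from -0.0306 to 0.259. For higher-coordinate flanks, Gata2 from -0.723 to 0.0610, Lmo2 from -1.02 to 0.276, Runx1 from -0.300 to 0.468. For less methylated ends, Gata2 from -1.84 to 0.926, Hhex from -0.901 to 0.685, Lmo2 from -1.38 to 1.13, Tal1 from -1.33 to 0.993. For low stretches, Lmo2 from -0.103 to 1.91, Tal1 from -0.131 to 4.85. For lower-coordinate flanks, Gata2 from -2.21 to 1.09, Hhex from -0.336 to 0.0686, Lmo2 from -0.403 to 0.444, Tal1 from -0.108 to 0.555. For more methylated ends, Gata2 from -1.0003 to 0.906, Lmo2 from -2.06 to 0.347, Lyl1 from -0.161 to 1.98, Mef2c from -3.63 to 1.15. For whole loci, Lmo2 from -0.0765 to 0.406, Lyl1 from -0.0732 to 0.460, Mef2c from -0.142 to 0.235. The end minus body differences kept their direction when any 1 sample was left out, Gata2 from 5.29 to 6.37, Hhex from -37.0 to -36.3, Lmo2 from -7.42 to -6.46, Lyl1 from -14.5 to -13.2, Mef2c from 12.1 to 13.3, Runx1 from 6.21 to 7.69, Tal1 from 2.72 to 3.43 points, with exact permutation p = 0.0625, the smallest that 5 pairs allow. With the wider end that of Lmo2 was 4.91 points. Depth per window is unknown, and with 3 samples a group differences of a few points at single windows could not be resolved.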

Other observations

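The spread between samples followed the level of a window. Member windows under 20% had a median SD over 3 samples of 0.932 points in mAdu and 0.926 points in aged samples, those between 20% and 80% of 3.34 and 3.05 points, and those over 80% of 2.40 and 2.27 points. Over all autosomal windows the medians were 1.17 and 1.18, 3.82 and 3.77, and 2.55 and 2.51 points. A difference of a given size was therefore least certain at intermediate windows such as the one of Mef2c start 3.

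Aged replicate 1 had the lowest value of the 6 samples at the distal Runx1 start (61.2%) and at Mef2c starts 1 and 3 (78.5% and 32.7%). It also had the lowest value at Tal1 start 2 (0.212%), which was almost unmethylated. At the proximal Runx1 start, at 1.16%, and at the remaining annotated starts it did not.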
